A study of Mus musculus with 2 samples.

Results

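The delta protocadherins are described here by their N6-methyladenosine (m6A) sites in newborn mouse brain. The 9 members, chosen by family with the site counts of these libraries in view, were Pcdh1, Pcdh7, Pcdh8, Pcdh9, Pcdh10, Pcdh17, Pcdh18, Pcdh19 and Pcdh20, out of 20701 genes with a complete coding isoform in the annotation. A site belonged to a member when it lay inside that gene's interval on the gene's strand. Together the members held 651 of the 79355 sites of the cerebellum library and 1073 of the 188295 sites of the cerebrum library. Over both libraries these were 1417 different positions out of 219409. The sites were measured by GLORI, a treatment with glyoxal and nitrite after which an unmethylated adenosine is read as G and a methylated adenosine is still read as A. Poly(A)+ RNA of 1 cerebellum and 1 cerebrum sample was used, both female and F1r at postnatal day 0 (F1r denotes hybrids of a C57BL/6J mother and a PWK/PhJ father). Both libraries carry the same genotype, age and sex, and they differ in tissue. Each tissue has 1 library, so no difference between tissues was tested, and every comparison below is a description of these 2 libraries.

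Delta protocadherins are nonclustered members of the cadherin superfamily. Each is a transmembrane protein with a row of extracellular cadherin repeats that bind calcium at their boundaries and mediate homophilic adhesion, followed by a cytoplasmic tail that can reach the actin cytoskeleton through the WAVE complex. Pcdh1, Pcdh7 and Pcdh9 belong to the delta-1 subgroup, while Pcdh8, Pcdh10, Pcdh17, Pcdh18 and Pcdh19 form the delta-2 subgroup. Pcdh20 is related to both and is usually placed in neither. In most of these genes a single large exon codes for the ectodomain and small exons code for the tail. In the developing brain they are known for axon growth, the sorting of projections and synapse formation.

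The deposited lists give positions only, after a filter by the authors that required more than 8 reads and a rate over 0.1. Depth and methylation level per site are therefore unknown. A position that is not in a list may lack methylation, expression or enough reads, and fewer cells of a type cannot be told apart from less RNA per cell. Shares below carry 95% Wilson intervals, which cover counting error over adenosines only and treat neighbouring adenosines as independent. The cerebrum list was deposited under a name that also holds the study's short form for cerebellum, and tissues were taken from the sample labels. As a check of these labels, 3 of 7 cerebellar marker genes (En1, En2 and Barhl1) carried 27 exonic sites in the cerebellum library against 1 exonic site in the cerebrum library. Atoh1, Ptf1a, Skor2 and Pax2 had no exonic site in either list.

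Most exonic sites of the members lay in the DRACH motif, the 5-base context of the m6A methyltransferase, in which D is any base but C, R is a purine, H is any base but G and the central A is modified. DRACH sites made up 311 of 380 exonic sites in cerebellum (81.8%, 77.7 to 85.4) and 366 of 483 in cerebrum (75.8%, 71.8 to 79.4). Over all coding genes the corresponding shares were 75.1% and 63.4%. The following counts are of exonic DRACH sites unless stated otherwise.

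Pcdh17, which acts in synapse assembly and axon extension, held 66 exonic DRACH sites in cerebellum and 66 in cerebrum. Pcdh9, a delta-1 member of cortical and other neurons, held 63 and 63. These members ranked 8th and 10th among all coding genes in cerebellum, and 23rd and 28th in cerebrum. Pcdh7, known from axon guidance and for binding protein phosphatase 1, held 46 and 50, and Pcdh10, needed for the growth of striatal and other axons, held 45 and 49. Pcdh19, the X-linked gene of an epilepsy of girls, held 37 and 44. Pcdh1, studied mainly in epithelia and blood vessels, held 27 and 36. Thus 6 members reached 20 sites in cerebellum and 7 did so in cerebrum, where 2.03% and 4.42% of all coding genes reached that number. The family was selected on these counts, so the excess over the background is not a result.

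The other members had fewer sites. Pcdh18, which binds the adaptor Dab1, had 19 sites in cerebellum and 27 in cerebrum, on either side of the count of 20. Pcdh8, an activity-regulated protein that drives the internalisation of N-cadherin, had 5 and 12. Pcdh20, which takes part in the sorting of olfactory axons, had 3 and 19. Its 3 cerebellum sites, at 88467659, 88468271 and 88469339 of chromosome 14 (GRCm38, minus strand), were all in the cerebrum list as well. They lay in the codons of aspartates 735, 531 and 175.

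**Figure D1:**
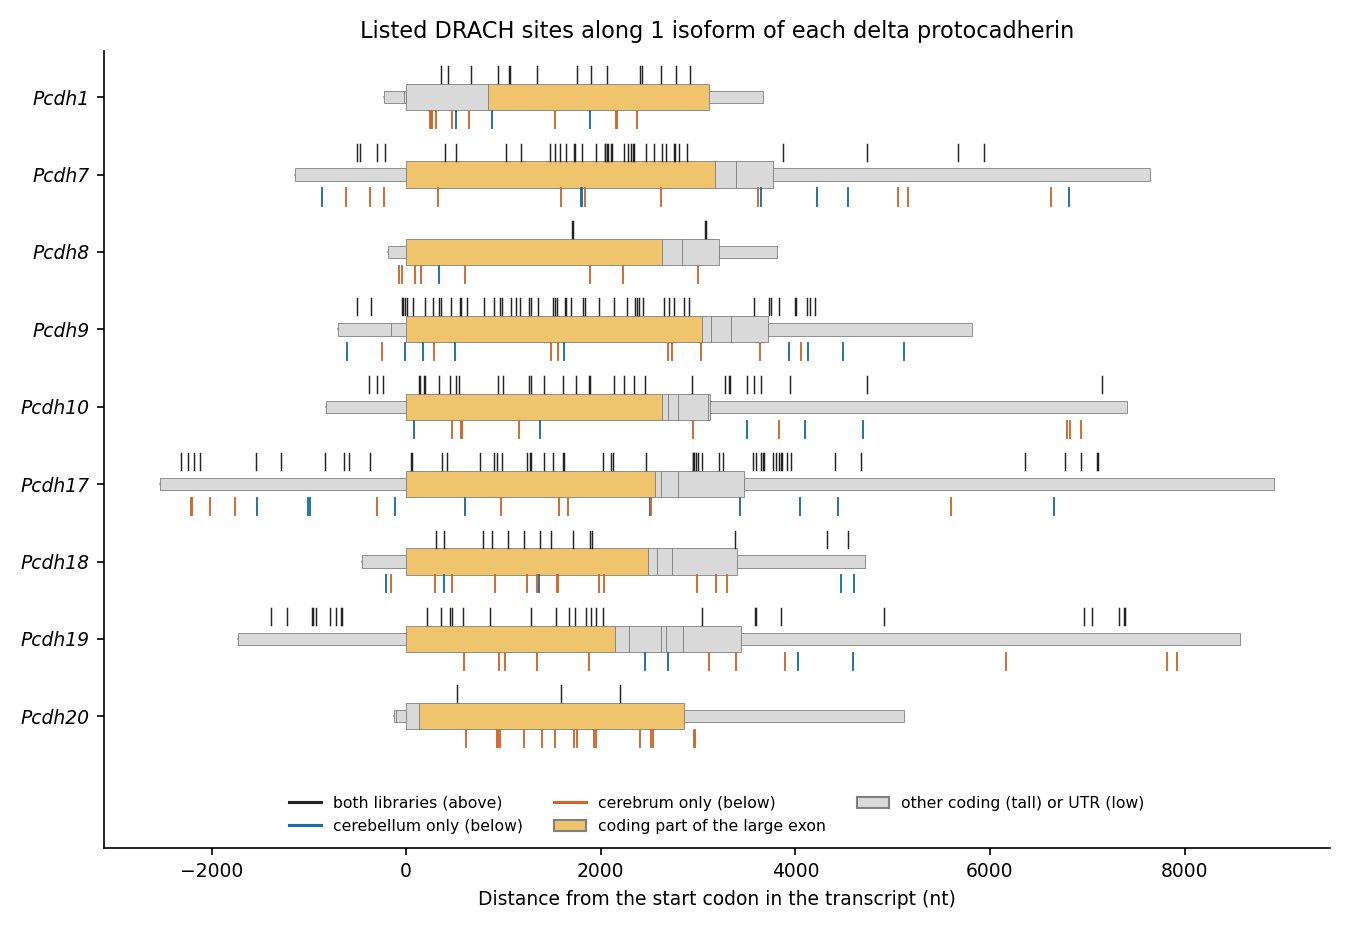
Exonic DRACH sites along 1 isoform of each member, with the distance from the start codon in nt on the horizontal axis. Black ticks above a transcript are the 252 drawn sites listed in both libraries, and ticks below are the 44 listed only in cerebellum (blue) or the 97 listed only in cerebrum (orange); 393 of the 415 exonic DRACH positions fall on the isoforms drawn. The ticks crowd over the coding part of the large exon (yellow) and are sparse over the long 3′ UTRs.

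The large exon was defined as the earliest exon of a transcript with at least 1000 coding nt. Its coding part ranged from 2147 nt in Pcdh19 to 3174 nt in Pcdh7. In Pcdh17 it began with the transcript itself, at chr14:84443563-84448653 on the plus strand of GRCm38. In Pcdh9 it was exon 2, at chr14:93885697-93888888 on the minus strand. In Pcdh1 and Pcdh20 it was the last exon, behind 1 shorter coding exon. In the other members it was followed by short coding exons and a 3′ UTR.

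Within the members, DRACH adenosines of the large exon were listed far more often than those of the 3′ UTR. Of 499 DRACH adenosines in the coding part of the large exons, 167 were listed in cerebellum (33.5%, 29.5 to 37.7) and 208 in cerebrum (41.7%, 37.4 to 46.1). Of 793 in the 3′ UTRs, 83 were listed in each library (10.5%, 8.52 to 12.8). The other coding exons lay between, with 22 of 154 listed in cerebellum (14.3%, 9.63 to 20.7) and 32 of 154 in cerebrum (20.8%, 15.1 to 27.9). The listed share of the large exon was thus 3.2 times that of the 3′ UTR in cerebellum and 3.98 times in cerebrum. Large exons held 31.3% of the members' exonic DRACH adenosines and contributed 53.7% of their exonic DRACH sites in cerebellum and 56.8% in cerebrum.

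By point estimate the large exon was listed more often than the 3′ UTR in each of the 9 members and in both libraries. In Pcdh1 the listed 3′ UTR sites lie on an isoform without the large exon, so its comparison is not within a single transcript. Pcdh9 had the highest listed share in the large exon, with 43 of 82 DRACH adenosines in cerebellum (52.4%, 41.8 to 62.9) and 46 in cerebrum (56.1%, 45.3 to 66.3). Its 3′ UTR had 12 of 48 (25.0%) and 9 of 48 (18.8%). Pcdh10 followed with 23 and 25 of 49 in the large exon (46.9% and 51.0%) against 7.69% and 8.12% in the 3′ UTR. Pcdh7 had the highest ratio of the regions in both libraries among members with 3′ UTR sites in both, with 33 and 35 of 76 in the large exon (43.4% and 46.1%) and 7 of 118 (5.93%) in the 3′ UTR in both libraries. In Pcdh17 the shares were 42.9% and 46.9% in the large exon and 16.7% and 15.2% in the 3′ UTR.

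Pcdh19, Pcdh1 and Pcdh18 had intermediate values. Their large exons were listed at 30.4%, 28% and 26.0% in cerebellum and at 41.3%, 32.0% and 40.0% in cerebrum. For Pcdh18 in cerebellum the interval of the large exon, 15.9 to 39.6, overlapped that of the 3′ UTR, 7.31 to 38.5. Pcdh8 had 3 and 7 of 32 large-exon adenosines listed (9.38% and 21.9%) and none of 8 in its 3′ UTR. Pcdh20 had 3 and 17 of 65 in the large exon (4.62% and 26.2%), against none and 2 of 45 in the 3′ UTR. The intervals of the 2 regions were apart for Pcdh7, Pcdh9, Pcdh10 and Pcdh17 in both libraries and for Pcdh19 and Pcdh20 in cerebrum. They overlapped for the remaining 5 members in cerebellum and 3 in cerebrum, so the order is not resolved there. In either library, the intervals of members next to each other in this order overlapped.

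**Figure D2:**
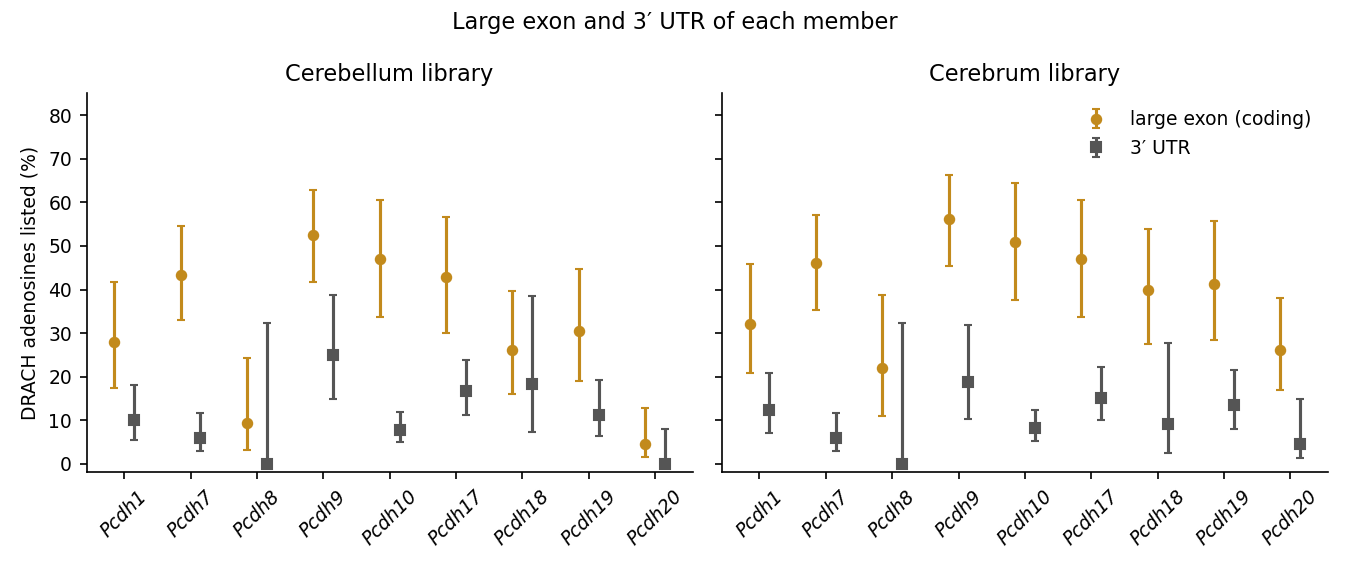
Percent of DRACH adenosines listed in the coding part of the large exon (yellow circles) and in the 3′ UTR (grey squares) of each member, for both libraries; bars are 95% Wilson intervals over adenosines. The circle lies above the square for each of the 9 members in both panels, with the highest circle at Pcdh9 and, in cerebellum, the lowest at Pcdh20.

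The delta-1 subgroup had higher large-exon shares than the delta-2 subgroup by point estimate. The 3 delta-1 members had 43.3% (36.7 to 50.1) of large-exon DRACH adenosines listed in cerebellum and 46.6% (40.0 to 53.4) in cerebrum, and the 5 delta-2 members had 32.7% (27.0 to 39.1) and 41.6% (35.4 to 48.1). The intervals of the subgroups overlapped in both libraries. Pcdh11x, the remaining delta-1 gene and not a member of the set, had 25 and 28 of 59 large-exon adenosines listed (42.4% and 47.5%) and 2 of 120 in its 3′ UTR (1.67%) in each library.

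Other genes with a comparable exon showed the same order at lower values. These coding genes lay outside the protocadherins and had a DRACH site. Their large exon was followed by a splice junction and had at most 1 coding exon before it. There were 299 in cerebellum and 338 in cerebrum. Their large exon was listed at 15.9% and 23.0% and their 3′ UTR at 6.82% and 10.3%. For the 9 members together, the large-exon shares were 2.1 and 1.81 times these values. Their 3′ UTR shares were 1.53 and 1.02 times. Pcdh1 and Pcdh20, whose large exon is the last, would not meet this rule. The other 7 members had 39.1% and 45.6% in the large exon. The single-gene shares of Pcdh7, Pcdh9, Pcdh10 and Pcdh17 would rank between 7th and 19th among 197 such genes with at least 5 sites in cerebellum, where the median was 19.2%. Pcdh19, Pcdh1 and Pcdh18 would rank 54th, 58th and 71st, and Pcdh8 and Pcdh20 153rd and 178th. In cerebrum, among 267 genes with a median of 27.6%, the 4 would rank between 15th and 40th. Pcdh19, Pcdh18 and Pcdh1 would rank 63rd, 67th and 105th, and Pcdh20 and Pcdh8 146th and 167th. The members were chosen with the site counts in view, whereas the comparison genes were not. Higher shares or ranks of the members over these genes, in any region, are therefore not a result.

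Genes picked for their site number were listed more often. Among the 414 and 907 other coding genes with 20 or more exonic DRACH sites, adenosines in large exons were listed at 29.9% and 35.9%, against 42.0% and 45.8% for the 6 and 7 members with as many sites, or 1.41 and 1.28 times. For all 9 members the factors were 1.12 and 1.16. The members' 3′ UTRs lay below those of the same genes, 10.5% in both libraries against 15.8% and 18.7%. The 12 type I and type II cadherins compared, relatives whose ectodomains are spread over many short exons, had 6.81% (5.25 to 8.80) of coding DRACH adenosines listed in cerebellum and 9% (7.18 to 11.2) in cerebrum. Among these cadherins, Cdh11 had the highest coding share, 27.5% (18.4 to 39.0) and 34.8% (24.6 to 46.6), and Cdh22 had no coding adenosine listed. The members' coding sequence as a whole had 28.9% (25.6 to 32.5) and 36.8% (33.1 to 40.5), which overlapped the intervals of Cdh11. In the 3′ UTR the cerebrum order was the opposite by point estimate, 12.1% in the cadherins and 10.5% in the members, with overlapping intervals. Expression of these genes was not measured here, and its part in any of these shares was not tested.

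**Figure D3:**
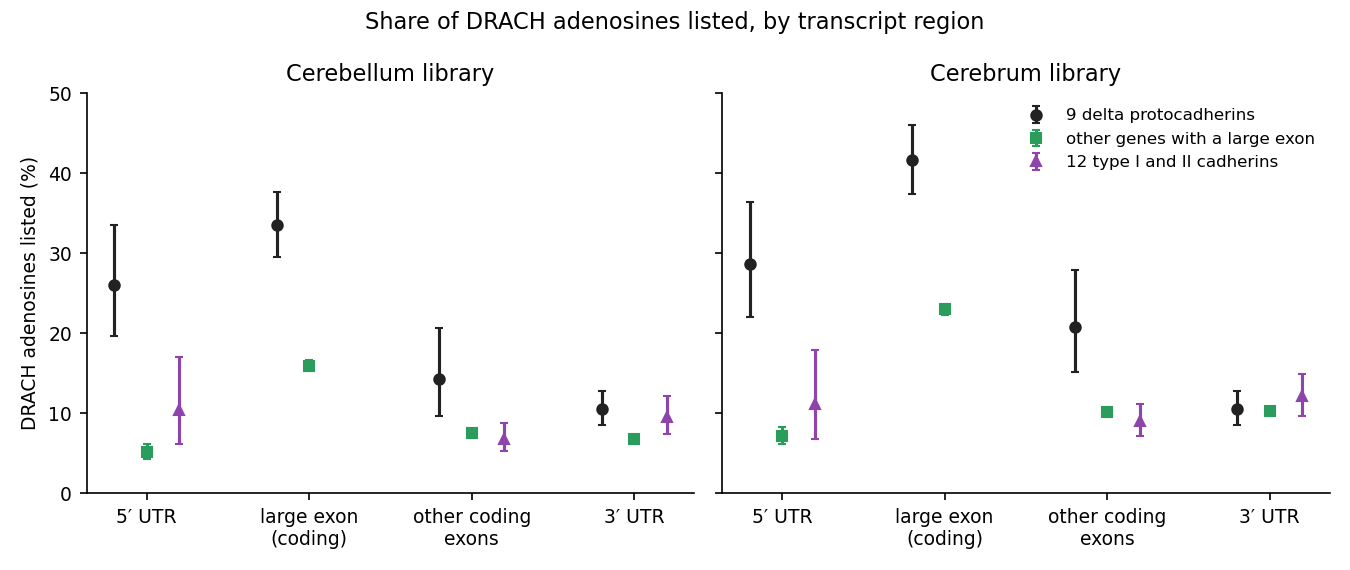
Percent of DRACH adenosines listed by transcript region in the 9 delta protocadherins (black circles), other genes with a large coding exon (green squares) and 12 type I and II cadherins (purple triangles, which have no large exon), in cerebellum and cerebrum; bars are 95% Wilson intervals over adenosines. The members stand above the other groups in the 5′ UTR and in coding exons, while in the 3′ UTR they are at 10.5% in both libraries, between the other groups in cerebrum and slightly above them in cerebellum.

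Near the splice junction that ends the large exon the listed share was lower by point estimate. In the 7 members with a downstream junction, 2 of 16 DRACH adenosines within the last 100 nt of the exon were listed in cerebellum (12.5%, 3.50 to 36) and 3 of 16 in cerebrum (18.8%, 6.59 to 43.0). Farther upstream, 148 of 368 (40.2%, 35.3 to 45.3) and 172 of 368 (46.7%, 41.7 to 51.8) were listed. Both cerebellum sites near the junction belonged to Pcdh17, and without that gene the share was 0 in cerebellum and 8.33% in cerebrum. The interval near the junction overlapped the one upstream in both libraries. In the other genes with a large exon, 9.49% and 12.8% were listed in the last 100 nt against 16.3% and 23.6% upstream. From 100 nt onward the members' shares had no trend with distance, ranging from 31.0% to 45.5% in cerebellum.

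**Figure D4:**
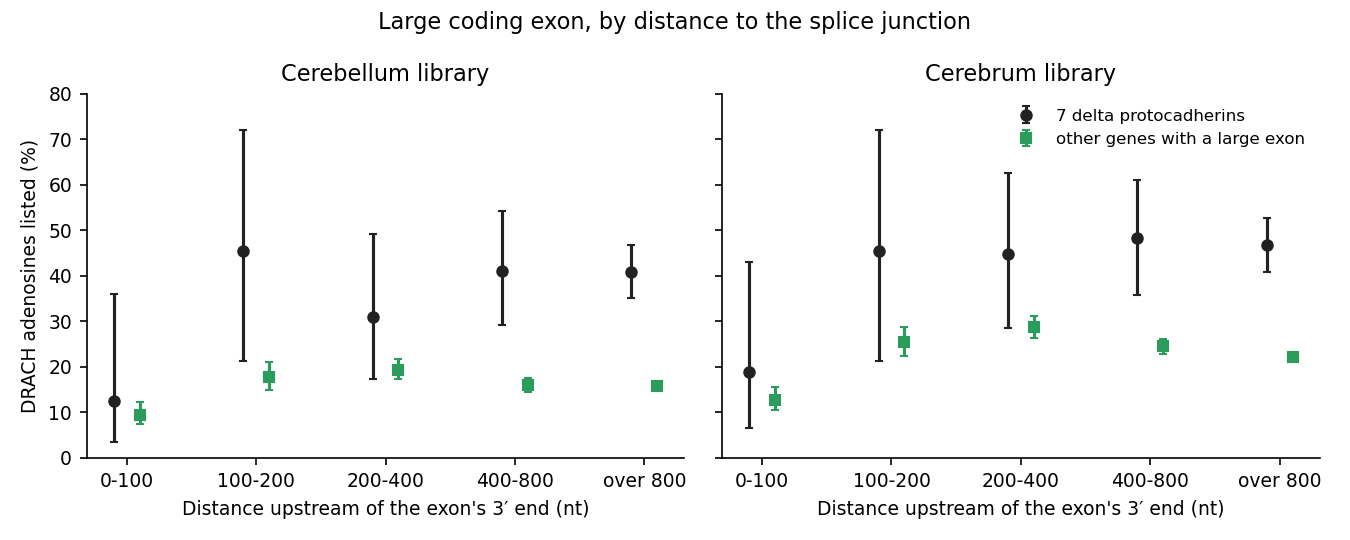
Percent of DRACH adenosines listed in the coding part of the large exon by distance in nt upstream of the exon's 3′ end, for the 7 delta protocadherins with a downstream splice junction (black circles) and other genes with a large exon (green squares); bars are 95% Wilson intervals over adenosines. In both groups and both libraries the nearest 100 nt have the lowest share, and the members' first interval is wide because it holds 16 adenosines.

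The 5′ UTRs of the members were also densely listed, with 39 of 150 DRACH adenosines in cerebellum (26.0%, 19.6 to 33.6) and 43 of 150 in cerebrum (28.7%, 22.0 to 36.4). The other genes with a large exon had 5.11% and 7.13%. In most members the 5′ UTR lies on the large exon itself, and there 28.8% and 32.0% were listed, against 3 of 25 (12%) on separate exons in each library. Pcdh17 supplied 14 and 15 of these sites, Pcdh19 supplied 9 and 9, and Pcdh9 supplied 7 and 6. Pcdh1 and Pcdh20 had none in either library.

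In the 3′ UTRs sites collected close to the stop codon. In the earliest 200 nt of the 3′ UTR, 15 of 54 DRACH adenosines were listed in cerebellum (27.8%, 17.6 to 40.9) and 19 of 54 in cerebrum (35.2%, 23.8 to 48.5). Beyond 200 nt the shares were 9.20% (7.32 to 11.5) and 8.66% (6.84 to 10.9) of 739. For Pcdh10, whose isoforms end in different 3′ UTRs, the UTR of the isoform drawn in the map was listed at 16.4% and 17.8% of 73 DRACH adenosines, while another isoform's UTR with 79 was listed at 1.27% and 2.53%. Which isoforms these tissues used was not measured here.

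The motif context separated listed from unlisted adenosines within the large exons. Among all member sites, introns included, GGACA was the most frequent 5-mer, with 43 in cerebellum and 55 in cerebrum. GGACT followed with 41 and 50. By the sum of both libraries next came AGACT (35 and 40) and then GAACT (36 and 35), and TGACT after it (29 and 33). In the large exons, AGACT was listed at 11 of 19 positions in cerebellum (57.9%) and 14 of 19 in cerebrum (73.7%), and GGACT at 19 and 24 of 35 (54.3% and 68.6%). GGACA was listed at 25 and 27 of 45 (55.6% and 60%). TGACT was listed at 56.5% and 69.6% of 23, and TGACA at 33.3% and 39.1% of 69. TGACC, by contrast, was listed at 1 of 45 in cerebellum (2.22%, 0.393 to 11.6) and 2 of 45 in cerebrum (4.44%, 1.23 to 14.8). GGACC, which differs from it only in the base at the start, was listed at 21 and 22 of 45 (46.7% and 48.9%). AAACA was listed at 1 and 2 of 23 (4.35% and 8.70%).

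Stretches of the large exons with the most shared sites are printed here because they show how tightly sites can follow each other in the coding sequence. Each is the 60 nt with the most DRACH sites listed in both libraries, in the sense direction of the gene and from GRCm38. Capitals mark those sites.
Pcdh7, chr5:57721124-57721183, plus strand: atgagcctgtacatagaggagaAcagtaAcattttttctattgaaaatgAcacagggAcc
Pcdh9, chr14:93887178-93887237, minus strand: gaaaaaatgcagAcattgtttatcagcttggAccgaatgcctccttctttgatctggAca
Pcdh10, chr3:45379376-45379435, plus strand: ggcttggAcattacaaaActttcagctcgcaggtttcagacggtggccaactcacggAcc
Pcdh17, chr14:84447323-84447382, plus strand: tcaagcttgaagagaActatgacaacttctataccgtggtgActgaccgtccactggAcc
Pcdh19, chrX:133686793-133686852, minus strand: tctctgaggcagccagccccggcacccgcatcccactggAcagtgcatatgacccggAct

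In the Pcdh7 stretch all 4 DRACH adenosines were listed in both libraries, and in the Pcdh9 and Pcdh10 stretches all 3 were. The Pcdh17 stretch held 5, of which 3 were listed in both libraries and none in 1 library only. The 2 that were missing lie in the contexts TGACA and TGACC. The Pcdh19 stretch held 3, of which 2 were listed, and Pcdh8, Pcdh18 and Pcdh20 reached at most 2, 2 and 1 shared sites in any 60 nt. Along the whole large exon, the median gap between neighbouring sites in cerebellum was 50 nt in Pcdh7 and 58.5 nt in Pcdh9. It was 684 nt in Pcdh8 and 840 nt in Pcdh20.

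Aspartate codons held the largest group of the large exons' DRACH adenosines among the codon classes counted here. Of the 499, 58.9% were the middle base of a codon, 226 of them in GAC, an aspartate codon, and 68 in AAC, an asparagine codon. GAC codons accounted for 50.9% (43.4 to 58.4) of the listed sites in cerebellum and 51.0% (44.2 to 57.7) in cerebrum, beside 45.3% of all DRACH adenosines there. They were listed at 37.6% and 46.9%, and AAC codons at 26.5% and 36.8%, with overlapping intervals. Aspartates and asparagines of the cadherin repeats bind calcium in short conserved motifs. In the DxND motif, in which x is any residue, 19 of 38 DRACH adenosines were listed in cerebellum (50.0%, 34.8 to 65.2) and 22 in cerebrum (57.9%, 42.2 to 72.1). In DxDxG 4 and 7 of 31 were listed (12.9% and 22.6%). Over the DxND, DxDxG and LDRE motifs together the shares were 32.2% and 40.2%, close to the 33.7% and 42.0% outside them.

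Aligning the 9 proteins showed where members carried sites at the same residue. Pairwise identity ran from 28.4% for Pcdh8 and Pcdh9 to 52.5% for Pcdh1 and Pcdh7. Of 1700 alignment columns, 190 held a listed DRACH site in at least 1 member, 45 in at least 2 and 13 in at least 3, out of 52 columns where at least 3 members have a DRACH adenosine. At those 13 columns, 41 of the 50 sites lay in aspartate codons. The aspartate share of all DRACH adenosines at the 52 columns was not counted, so no enrichment is read from this. The largest number of members at a column was 5, reached at 4 columns. The 3 nearest the N terminus are given with 21 nt from GRCm38 around each site, the site in capitals, except that of Pcdh1 at column 347, which is not shown. All are aspartate codons, and the sequences are printed because the neighbouring residues are conserved too.
Pcdh7, column 214, chr5:57719498-57719518, plus strand: atcgtgctggAcatcaacgat
Pcdh10, column 214, chr3:45379583-45379603, plus strand: gaagtgctggAcatcaatgac
Pcdh17, column 214, chr14:84446458-84446478, plus strand: gagatccaggAcatcaacgac
Pcdh18, column 214, chr3:49756469-49756489, minus strand: gacgtgctggAcattaatgac
Pcdh19, column 214, chrX:133686893-133686913, minus strand: gagatcaaagAcctgaacgac
Pcdh8, column 347, chr14:79770501-79770521, minus strand: caggagttggAccgcgagagc
Pcdh10, column 347, chr3:45379811-45379831, plus strand: aagccactggAccgagaacag
Pcdh17, column 347, chr14:84446692-84446712, plus strand: aaggcactggAccgcgagctg
Pcdh19, column 347, chrX:133686665-133686685, minus strand: aagagcctggAccgtgagaca
Pcdh7, column 676, chr5:57720683-57720703, plus strand: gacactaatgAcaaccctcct
Pcdh10, column 676, chr3:45380615-45380635, plus strand: gatgtgaatgAcaatgcgccg
Pcdh18, column 676, chr3:49755476-49755496, minus strand: gacataaatgAcaatccacct
Pcdh19, column 676, chrX:133685912-133685932, minus strand: gatgagaatgAcaaccaccca
Pcdh20, column 676, chr14:88468261-88468281, minus strand: gacgacaatgAcaatgcccct

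Column 214 is the aspartate that opens a DxND motif and column 347 is the aspartate of an LDRE motif. Column 676 is the aspartate that closes a DxND motif, with an asparagine after it. At column 214 the site was in both lists in Pcdh7, Pcdh10, Pcdh17 and Pcdh19 and only in the cerebellum list in Pcdh18, and 6 members have a DRACH adenosine there. At column 347, where 7 members have a DRACH adenosine, Pcdh19 was listed in both libraries, Pcdh17 in cerebellum and Pcdh1, Pcdh8 and Pcdh10 in cerebrum. At column 676, where 8 have it, Pcdh18 and Pcdh20 were listed in both libraries, Pcdh10 in cerebellum and Pcdh7 and Pcdh19 in cerebrum. Sites at 1 column therefore did not have the same tissue pattern across members.

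The members' site numbers were closer between the tissues than those of all coding genes summed. The cerebellum library listed 0.85 as many exonic DRACH sites in the members as the cerebrum library, where the ratio was 0.585 over all coding genes and the median was 0.741 over the 1301 genes with at least 10 in each library. Pcdh9 and Pcdh17 had a ratio of 1, Pcdh7 of 0.92 and Pcdh10 of 0.918. Pcdh8 and Pcdh20 had the lowest, 0.417 and 0.158. Of the members' exonic DRACH sites, 262 were in both libraries, which were 84.2% (79.8 to 87.9) of the cerebellum sites and 71.6% (66.8 to 76.0) of the cerebrum sites. In other coding genes the shared sites were 83.6% and 48.9%. In the 12 cadherins they were 80.3% (72.4 to 86.4) and 63.2% (55.4 to 70.4), with intervals that overlapped those of the members. In Pcdh11x they were 87.9% and 80.6%.

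In the large exons 153 of 167 cerebellum sites were also in cerebrum (91.6%, 86.4 to 94.9) and 153 of 208 cerebrum sites were also in cerebellum (73.6%, 67.2 to 79.1). In the 3′ UTRs 61 of 83 sites were shared in each direction (73.5%, 63.1 to 81.8). In the large exons of the other genes with a large exon, 89.5% of cerebellum sites and 54.0% of cerebrum sites were shared. All 14 cerebellum sites in the large exon of Pcdh19 were in the cerebrum list, as were 31 of 33 for Pcdh7 and 40 of 43 for Pcdh9. In the reverse direction 3 of 17 cerebrum sites of Pcdh20 and 2 of 7 of Pcdh8 were in the cerebellum list. Whether sites missing from the cerebellum list were unmethylated or below the read filter cannot be told apart in these files.

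Intronic sites came almost entirely from the members with very long introns. Pcdh7 and Pcdh9 held 258 of the 268 intronic sites in cerebellum and 563 of 585 in cerebrum. Over 870 kb of intron, Pcdh9 had 21.7 sites per 100 kb in cerebellum and 47 in cerebrum, and Pcdh7 had 17.1 and 38.1 over 405 kb. Of the intronic sites of all members, 11.9% (8.59 to 16.4) were DRACH in cerebellum and 8.21% (6.24 to 10.7) in cerebrum. The DRACH share of all intronic adenosines was not counted, so no enrichment of the motif is read from these values. Of the intronic sites, 5.60% of those in cerebellum and 2.56% of those in cerebrum were listed in the other library. In Pcdh7, 45 sites also lay in another gene annotated on the same strand, and in Pcdh9 8 did, so their transcript of origin is uncertain.

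Genes of proteins known to act with delta protocadherins held their sites mainly in 3′ UTRs. Of 11 such genes, which code for WAVE complex subunits (Wasf1, Nckap1, Cyfip1, Cyfip2, Abi1, Abi2, Brk1), N-cadherin (Cdh2), protein phosphatase 1 (Ppp1ca), the kinase TAO2 (Taok2) and the adaptor Dab1, 9 had an exonic DRACH site in each library, where 35.4% of all coding genes in cerebellum and 45.5% in cerebrum had one. They held 65 sites in cerebellum, 53 of them in 3′ UTRs, and 82 in cerebrum, 66 of them in 3′ UTRs. Abi2, Brk1 and Dab1 held 15, 8 and 14 of these 3′ UTR sites in cerebellum and 18, 8 and 20 in cerebrum. Over all coding genes with a site, 25327 of 44183 sites in cerebellum and 42091 of 75466 in cerebrum lay in 3′ UTRs. The listed share of the exonic DRACH adenosines of the 11 genes was 6.27% and 7.91%, against 19.5% and 22.9% in the members. Over all coding genes with a site it was 6.24% and 8.75%. Dab1 had the most sites, 17 and 22, and Cyfip1 and Ppp1ca had none.

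The genes whose DRACH sites were spread over the transcript most like the pooled members were Extl3, Grin2b, Fem1c, Gm38394 and Kat6a. Likeness was the summed absolute difference in the shares of sites in the 5′ UTR, large exon, other coding exons and 3′ UTR over both libraries, among 402 genes with at least 20 sites in each. The difference was 0.243 for Extl3 and 0.383 for Kat6a, against a median of 1.65. Grin2b, an NMDA receptor subunit, held 53.1% of its 49 cerebellum sites and 50.9% of its 57 cerebrum sites in the large exon. Single members differed from their own pool by 0.588 (Pcdh10) to 1.58 (Pcdh20).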

How the data were processed

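GLORI was performed on poly(A)+ RNA from 1 cerebellum and 1 cerebrum sample. The authors called m6A positions by GLORI-tools against mm10 and a PWK-substituted mm10, merged the results per library and required more than 8 reads and a rate over 0.1. The deposited lists hold chromosome, position and strand, with no rate or count, so depth per sample is unknown. Members and gene lists were chosen with earlier results of these data known. Sites were placed on GENCODE M21 models on GRCm38, a release other than that used by the authors, each exonic position going to the longest complete coding isoform that covers it. The DRACH adenosines of each region were the denominators of the listed shares, with 95% Wilson intervals and no test. Proteins translated from these models were aligned with MAFFT 7.526. Windows and columns shown were those with the most sites, ties going to the 5′ or N-terminal end. Sequences were read with pysam 0.24.0 and computations used Python 3.11.15 and numpy 2.4.6. The counting was run on simulated lists, where all 8 region counts were recovered exactly. The simulated sites were drawn with the same region and motif calls, so those calls were not tested. Alternatives were the isoform choice, the exon threshold, sites in both libraries, DRACH or exonic sites only, a tolerance of 1 nt and leaving out each member. Tissue differences, methylation levels and alleles were not analysed here. A check against cerebral marker genes is not reported here.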

Additional observations from a re-analysis of the deposited data

How the results depend on the processing

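Of 196 alternative values, 158 stayed inside the 95% interval of the reported value or within 1.5 times a reported count. No paired analysis was possible because each tissue has 1 library and no test was made.

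With sites listed in both libraries only, the 3′ UTR share was 7.69% in each tissue, and the cerebrum shares were 30.7% in large exons and 11% in other coding exons. On the longest isoform of each gene alone, the 3′ UTR share was 12.9% in both. An exon threshold of 2000 nt left every value unchanged, because the large exon of each member has at least 2147 coding nt. It is therefore no check of the shares, although its values are counted among those that stayed inside. With alternatives chosen after seeing the data, the large-exon share in cerebellum was 39.1% in members with a downstream junction and 42.0% in members with 20 or more sites. The large exon was listed more often than the 3′ UTR with shared sites only and on the longest isoform. The longest isoform of Pcdh1 has no large exon, so the large-exon share on the longest isoforms equals that without Pcdh1.

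All member sites together, introns included, numbered 651 and 1073, of which 52.7% and 38.7% were DRACH and 47.2% and 28.6% shared. Exons alone, those of other transcripts included, held 383 and 488 sites, 81.2% and 75.2% of them DRACH. DRACH sites numbered 343 and 415, of which 78.1% and 64.6% were shared.

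Leaving out 1 member at a time gave large-exon shares from 29.7% (without Pcdh9) to 37.8% (without Pcdh20) in cerebellum and from 38.8% to 44.0% in cerebrum. The DRACH share of all member sites ran from 48.8% to 65.6% and from 35.8% to 54.4%, and the shared part from 43.2% to 61.7% and from 25.1% to 41.3%, each lowest without Pcdh17 and highest without Pcdh9. In the last 100 nt of the large exon the share ran from 0 (without Pcdh17) to 16.7% in cerebellum and from 8.33% to 25.0% in cerebrum. The cause of these shifts was not tested. The unknown depth limits every share to what passed the authors' filter.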
